A study of Homo sapiens with 18 samples.

Results

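The genes described here are 10 receptors and ligands of glioma growth factor signaling, namely PDGFRA, PDGFRB, PDGFA, PDGFB, PDGFC, MET, HGF, FGFR1, FGF2 and FGF5. They were chosen by name, with earlier results of these data known, as glioma receptor tyrosine kinases other than EGFR with ligands of theirs. Their 10 rows were found by Ensembl identifier among the 58302 genes of the count table. RNA was sequenced from U87MG, an established human glioblastoma cell line that stands for 1 tumor and was grown in medium with fetal bovine serum, which brings growth factors of its own. The control group held 2 replicates, labelled U87-WT and kept under normal growth conditions, and no vehicle is named for them in the labels. The other 2 replicates had received Erastin at 10 μM for 72 h. Erastin is a small molecule that blocks the cystine importer of the cell and leads to ferroptosis, an iron-dependent cell death. Nothing in the labels says that the replicates came from separate experiments beyond their numbers. The p-values compare the groups with the variation between these libraries, estimated in part over many genes. Variation between separate experiments may not be covered.

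Platelet-derived growth factors (PDGF) are dimeric ligands that bring together the receptor kinases PDGFRα and PDGFRβ. PDGF-A acts through PDGFRα, PDGF-B through both receptors, and PDGF-C mainly through PDGFRα once its CUB domain has been removed. Hepatocyte growth factor (HGF) is the ligand of the receptor kinase MET, and basic fibroblast growth factor (FGF2) and FGF5 bind FGF receptors such as FGFR1 together with heparan sulfate. In glioma these receptors feed the RAS-ERK and PI3K-AKT cascades, often through ligands that the tumor cells make themselves.

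The sequences next to the start sites of FGF2, PDGFRB, HGF and MET are shown because the first 3 are the members whose RNA changed past both thresholds, described in the following paragraphs, and MET had the highest level of the 10. They come from RefSeq (GRCh38.p14), from the 250 bases before the RefSeq start, and are limited to the longest stretch without an annotated exon. For HGF that stretch lies between annotated exons of the gene, since other annotated transcripts start further upstream. Capitals mark a GC box (GGGCGG) or a CCAAT box (CCAAT) on either strand, and neighbouring matches may overlap. Each line reads 5′ to 3′ on the strand of the gene.
FGF2: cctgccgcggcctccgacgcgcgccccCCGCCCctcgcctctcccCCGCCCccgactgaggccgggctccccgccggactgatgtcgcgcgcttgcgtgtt
PDGFRB: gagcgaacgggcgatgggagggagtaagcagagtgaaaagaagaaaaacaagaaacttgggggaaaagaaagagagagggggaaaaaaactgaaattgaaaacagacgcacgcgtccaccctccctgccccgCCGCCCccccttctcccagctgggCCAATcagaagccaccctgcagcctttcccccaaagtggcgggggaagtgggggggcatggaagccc
HGF: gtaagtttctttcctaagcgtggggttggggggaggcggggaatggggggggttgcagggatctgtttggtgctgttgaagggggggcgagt
MET: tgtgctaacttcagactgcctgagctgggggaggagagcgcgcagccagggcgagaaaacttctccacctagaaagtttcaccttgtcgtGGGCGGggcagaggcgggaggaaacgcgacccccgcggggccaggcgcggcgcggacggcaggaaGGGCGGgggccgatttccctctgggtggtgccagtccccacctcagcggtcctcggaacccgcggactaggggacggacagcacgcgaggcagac
The FGF2 stretch is chr4:122826581-122826681 on the plus strand, the PDGFRB stretch is chr5:150155873-150156095 on the minus strand, the HGF stretch is chr7:81770199-81770290 on the minus strand, and the MET stretch is chr7:116671946-116672195 on the plus strand. In the whole 250-base windows, FGF2 held 3 GC boxes, MET held 2, PDGFRB held 1 and HGF held 0. PDGFRB also held 1 CCAAT box. Among 35116 such windows of RefSeq, 42.6% held a GC box and 32% a CCAAT box. The GC content of the windows was 75.2% for FGF2, 68.4% for MET, 58.4% for PDGFRB and 50.0% for HGF, compared to a median of 58.0% over all windows. Matches to TATAAA and TGANTCA (N for any base) were found in 10.7% and 6.57% of all windows and in 0 of these 4. These matches describe the letters of the windows, and binding of a factor was not tested.

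The counts on genes totalled 29412656 to 31513519 per library, and 16751 genes with sufficient counts were tested by edgeR's quasi-likelihood test, with p-values adjusted by the Benjamini-Hochberg method over all of them. Calls needed an adjusted p under 0.05 and a log2 fold change of 1 or more for upregulated genes, or −1 or below for downregulated genes. Levels are given as RPKM, read counts scaled to library size and to the length of all annotated exons of a gene. Comparisons between genes thus depend on these lengths, and RNA that holds only part of the exons is understated. As a check of the cell type, the glioma and neural markers VIM and CD44 were abundant, with 77887 and 42924 counts in control replicate 1. OLIG1 and AQP4 had 0 counts in all libraries, and S100B and SOX2 had at most 6. GFAP, an astrocyte marker, had 46 and 41 counts in control and 69 and 81 in Erastin-treated libraries. Its change did not pass the test (log2 fold change 0.79, adjusted p = 0.0696, edgeR). Of the 15 markers of this list, 8 were tested and 5 were lower at an adjusted p under 0.05 by edgeR, beside 23.7% of all genes tested. VIM fell by 0.60 (adjusted p = 1.27e-05, edgeR) and CD44 by 0.36 (adjusted p = 0.000644, edgeR) on the log2 scale, short of the fold threshold. The other 3 passed the fold threshold too, which 9.34% of all genes did downward, and NES fell by 3.62, SLC1A3 by 2.45 and CHI3L1 by 2.26. The summed level of the list was 4241 and 4201 CPM (counts scaled to library size) in control and 2727 and 2915 CPM in Erastin-treated libraries. Immune markers summed to 0.612 to 1.21 CPM and epithelial markers to 0.164 to 0.547 CPM. In bulk RNA, fewer cells of a kind and less RNA per cell cannot be told apart.

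In Erastin-treated cells FGF2 rose 2.95-fold, HGF fell 4.47-fold and PDGFRB fell 2.94-fold compared to control. PDGFC was lower by a smaller amount, and MET, the most abundant of the 10 RNAs, was lower by a log2 fold change of −0.17. PDGFA, FGFR1 and FGF5 did not pass the test, while PDGFRA was near the limit of detection and PDGFB was not detected. Of the 8 members tested, 1 was called upregulated, beside 6.24% of all genes tested, and 2 were called downregulated, beside 9.34%. Without the fold threshold, 1 member was higher (23.2% of all genes) and 4 were lower (23.7% of all genes) at an adjusted p under 0.05. Both Erastin-treated libraries lay above both control libraries for 3 tested members (36.7% of all genes) and below them for 4 (36.9% of all genes). The median log2 fold change of the 8 was −0.053, and that of all genes tested was −0.00259. The remaining 2 members, PDGFRA and PDGFB, had too few counts for the test.

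**Figure D1:**
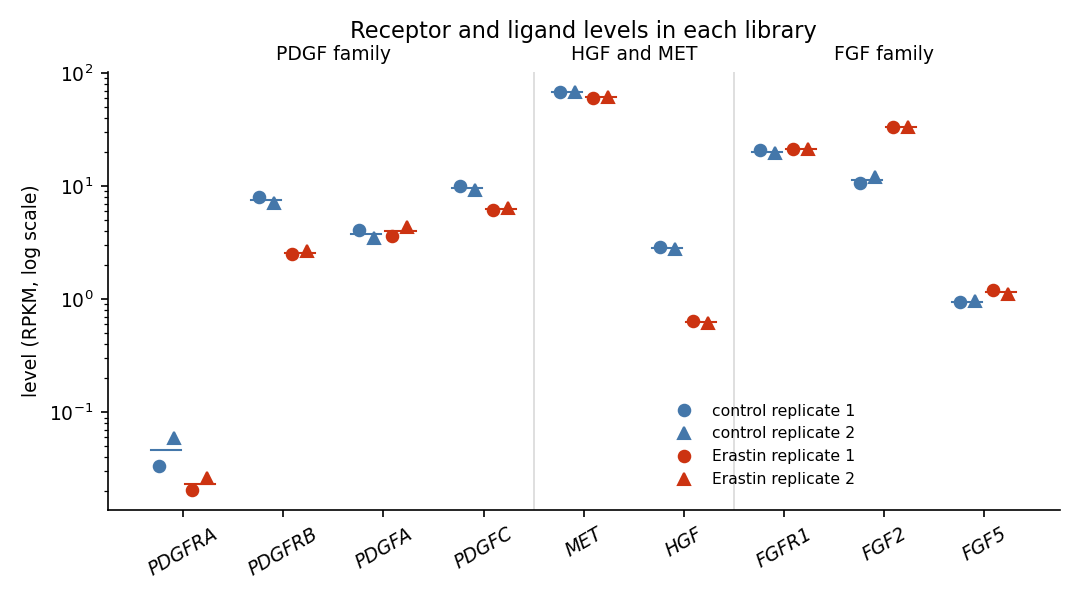
Level of 9 members in each of the 4 libraries, in RPKM on a log scale, with control in blue, Erastin in red, circles for replicate 1, triangles for replicate 2 and a line at each group's mean. FGF2 lies higher and PDGFRB, HGF and PDGFC lie lower in both Erastin libraries, MET is the highest in every library, and PDGFB, with 0 counts throughout, cannot be drawn on a log scale.

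In control cells the levels ran from MET at 68.6 ± 0.0764 RPKM (SD, n = 2) through FGFR1 at 20.1 ± 0.903, FGF2 at 11.3 ± 0.831, PDGFC at 9.64 ± 0.440, PDGFRB at 7.57 ± 0.647, PDGFA at 3.81 ± 0.435 and HGF at 2.83 ± 0.0626 to FGF5 at 0.949 ± 0.0162 RPKM. PDGFRA followed at 0.0466 ± 0.0183 RPKM. In Erastin-treated cells MET remained first at 60.8 ± 1.41 RPKM, FGF2 came second at 33.5 ± 0.154 and FGFR1 next at 21.2 ± 0.0701. PDGFC at 6.32 ± 0.167, PDGFA at 3.99 ± 0.544, PDGFRB at 2.57 ± 0.111, FGF5 at 1.15 ± 0.0670, HGF at 0.633 ± 0.0142 and PDGFRA at 0.0234 ± 0.0039 RPKM followed. The order by RPKM thus changed in 3 places, where FGF2 passed FGFR1, PDGFA passed PDGFRB and FGF5 passed HGF. By mean CPM in Erastin-treated cells, FGFR1 stayed above FGF2 (269 against 227) and PDGFRB above PDGFA (18.3 against 16.6). FGF5 also passed HGF in CPM (6.90 against 5.63). Neighbours in either order did not overlap between replicates, the closest by ratio being FGF2 and PDGFC in control cells, at 10.8 and 11.9 RPKM against 9.95 and 9.32. MET lay above 97.1% of the tested genes in control and 96.5% in Erastin-treated cells. FGF2 moved from above 75.9% of them to above 92.4%, PDGFRB from 66.4% to 45.1% and HGF from 45.4% to 22.8%.

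Among the receptors, PDGFRB (ENSG00000113721, chromosome 5, 150113837 to 150155872, minus strand of GRCh38) encodes PDGFRβ, a receptor known from pericytes and mesenchymal cells. Its counts were 1752 and 1577 in control replicates and 532 and 594 after Erastin. In RPKM these were 8.03, 7.11, 2.49 and 2.65, and the groups were far apart compared to the difference between replicates. On the log2 scale the change was −1.56 (standard error, SE, 0.104, adjusted p = 2.52e-07, edgeR), with a 95% interval from −1.79 to −1.33. With each library left out in turn it stayed between −1.65 and −1.47. Markers of endothelial cells and pericytes moved as well. Their summed level over 6 genes was 259 and 215 CPM in control and 58.6 and 60.9 CPM in Erastin-treated libraries, most of it from CSPG4, a proteoglycan of pericytes and glial precursors that fell by 2.13 on the log2 scale. Of the 6 genes 4 were tested, PECAM1 fell by 2.34, from 138 and 188 counts to 31 and 33, and VWF rose from 4 and 4 counts to 17 and 32. RGS5, a pericyte marker, was higher after Erastin, with 121 and 123 counts in control and 190 and 187 in Erastin libraries (log2 fold change 0.64, adjusted p = 0.0257, edgeR). By edgeR 2 of the 4 were thus higher and 2 lower at an adjusted p under 0.05, beside 23.2% and 23.7% of all genes tested. The defining endothelial markers CDH5 and CLDN5 had 1 count in all libraries together and 0 counts, respectively. The part of these cell states in the fall of PDGFRB was not tested. CSF1R, which lies next to PDGFRB on the chromosome, had 256 and 259 counts in control and 147 and 177 in Erastin libraries.

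PDGFRA (ENSG00000134853, chromosome 4, 54229097 to 54298247, plus strand) encodes PDGFRα, a receptor whose gene is amplified in a subset of gliomas. Its 10 and 18 counts in control and 6 and 8 after Erastin were too few to pass the filter on low counts. Both Erastin values were below both control values, but a difference was not detectable at this depth. With the filter removed, edgeR gave −0.98 on the log2 scale, with SE 0.852 and adjusted p = 0.484, and DESeq2 gave −0.99 (adjusted p = 0.572). PDGFRA made up 0.417% and 0.830% of the summed level of both PDGF receptors in control libraries and 0.820% and 0.978% in Erastin libraries, which overlapped (exact two-sided permutation test, p = 0.667). A readthrough gene on the same strand (ENSG00000282278) shares 15.8% of the exon bases of PDGFRA, on which reads had not been counted for either gene.

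Of the PDGF ligands, PDGFC (ENSG00000145431, chromosome 4, 156760454 to 156971394, minus strand) had the highest level. It had 1701 and 1620 counts in control and 1038 and 1132 in Erastin libraries, or 9.95, 9.32, 6.20 and 6.44 RPKM. Its change was −0.61 on the log2 scale (SE 0.0880, adjusted p = 0.000138, edgeR), which is 1.52-fold lower and short of the fold threshold. The groups did not overlap, and leaving out each library gave −0.66 to −0.56. PDGFA (ENSG00000197461, chromosome 7, 497258 to 520296, minus strand), the ligand that acts through PDGFRα, had 523 and 452 counts in control and 448 and 571 in Erastin libraries. The groups overlapped, the change was 0.07 on the log2 scale (SE 0.144, adjusted p = 0.737, edgeR), and its 95% interval ran from −0.25 to 0.38. PDGFB (ENSG00000100311, chromosome 22, 39223359 to 39244751, minus strand), which encodes the ligand of both receptors, had 0 counts in all 4 libraries. A count of 0 allows up to 3 counts if counts are independent, which is 0.0955 to 0.10 CPM or 0.0254 to 0.0267 RPKM per library. The 2 reads of a pair were counted singly and are not independent, so the true limits may be higher. Reads carried no molecular identifiers, so such limits cover counting error only. PDGFC therefore made up 70.7% and 72.7% of the summed level of the PDGF ligands in control and 63.2% and 59.5% in Erastin libraries.

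HGF (ENSG00000019991, chromosome 7, 81699006 to 81770438, minus strand) showed the largest change of the 8 tested members. Control replicates held 782 and 770 counts of it, and Erastin replicates held 171 and 174. The levels were 2.87 and 2.79 RPKM in control and 0.643 and 0.622 RPKM in Erastin-treated cells, so the replicates lay close together within each group. The change was −2.16 on the log2 scale (SE 0.134, adjusted p = 1.29e-07, edgeR), with a 95% interval from −2.45 to −1.87. It ranged from −2.19 to −2.14 with each library left out. No exon of another gene overlaps HGF, whose upstream window without a GC box is given above.

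MET (ENSG00000105976, chromosome 7, 116672390 to 116798386, plus strand) encodes the receptor of HGF. Counts were 14756 and 15015 in control and 12594 and 13670 after Erastin, or 68.6, 68.7, 59.8 and 61.8 RPKM. Both Erastin values were lower. On the log2 scale the change was −0.17 (SE 0.0618, 95% interval −0.31 to −0.04), with an adjusted p of 0.0365 by edgeR. This small difference passed the threshold under some settings and not under others. The adjusted p by edgeR was 0.116 with scaling by library totals (log2 fold change −0.12), 0.252 without Erastin replicate 1 and 0.135 without Erastin replicate 2, and DESeq2 gave 0.0268. MET accounted for 54.9% of the summed level of the 10 genes in control and 46.7% in Erastin-treated cells.

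FGF2 (ENSG00000138685, chromosome 4, 122826708 to 122898236, plus strand), a ligand that is released without a signal peptide, was the upregulated member. The 2227 and 2510 counts of the control replicates compare to 6802 and 7099 after Erastin. The levels were 10.8 and 11.9 RPKM in control and 33.6 and 33.3 RPKM in Erastin-treated cells, without overlap. The change was 1.56 on the log2 scale (SE 0.0736, adjusted p = 1.32e-08, edgeR), with a 95% interval from 1.40 to 1.72 and a range of 1.49 to 1.63 with each library left out. Its share of the summed level of the 10 genes rose from 9.08% to 25.7%. NUDT6 lies on the opposite strand and shares 11.9% of the exon bases of FGF2, and its own counts were lower in the Erastin libraries, at 55 and 68 against 133 and 110. The counting ignored strand and left out reads on both genes, so these counts come from the exon bases that the genes do not share.

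FGF5 (ENSG00000138675, chromosome 4, 80266599 to 80336680, plus strand), a secreted ligand known from the hair cycle and from tumor cells, had 172 and 179 counts in control and 215 and 208 in Erastin libraries. Both Erastin values were higher, but the change of 0.28 on the log2 scale (SE 0.189, 95% interval −0.14 to 0.69, edgeR) did not pass the test, with an adjusted p of 0.254. FGFR1 (ENSG00000077782, chromosome 8, 38411138 to 38468834, minus strand), the FGF receptor with the most counts, had 8067 and 7692 counts in control and 8055 and 8422 in Erastin libraries. In RPKM these were 20.8, 19.5, 21.2 and 21.1, and its log2 fold change was 0.07 (SE 0.0654, 95% interval −0.07 to 0.21, adjusted p = 0.403, edgeR). A rise above 0.21 or a fall beyond 0.07 on the log2 scale thus lay outside the interval.

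**Figure D2:**
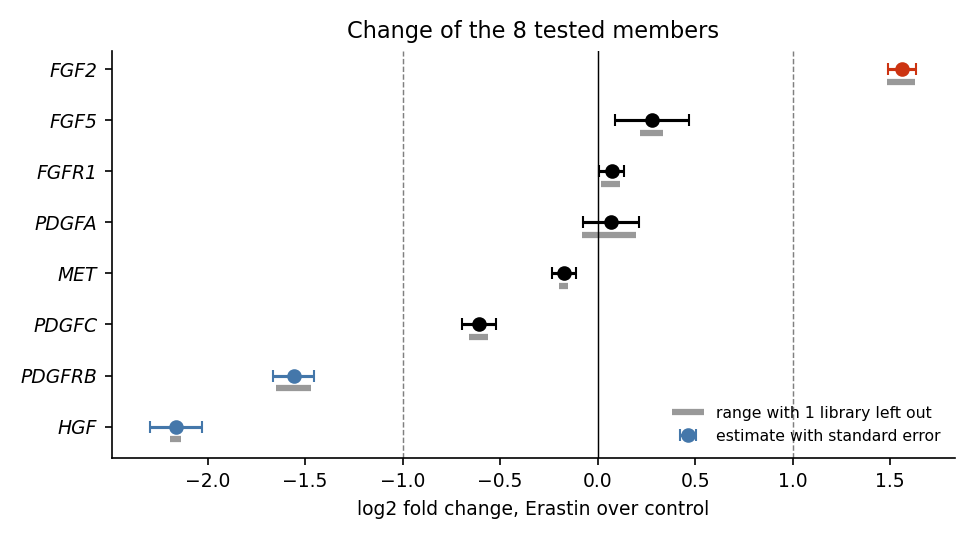
Log2 fold change of the 8 tested members in Erastin-treated over control cells, with the standard error as a thin bar and the range over fits without 1 library as a grey bar beneath it, and dashed lines at the fold threshold of 1 in either direction. FGF2 in red (1.56) and PDGFRB (−1.56) and HGF (−2.16) in blue lie beyond the dashed lines with their whole ranges, and the grey bar of PDGFA crosses 0.

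Ratios within a library do not depend on the scaling between libraries. The level of MET over that of HGF was 23.9 and 24.6 in control and 93.1 and 99.3 in Erastin libraries. This ratio of receptor to ligand RNA was higher after treatment because HGF fell by more than MET. FGFR1 over FGF2 turned the other way, from 1.93 and 1.64 to 0.632 and 0.633, so in RPKM the ligand then exceeded the receptor. That crossing depends on the exon lengths used, 12698 bases for FGFR1 and 6775 for FGF2. In CPM, without division by length, FGFR1 stayed above FGF2 in Erastin libraries, at 269 and 268 against 227 and 226. FGF2 over FGF5 was 11.5 and 12.4 in control and 28.0 and 30.2 in Erastin libraries. Within the PDGF family, PDGFC over PDGFA was 2.41 and 2.66 in control and 1.72 and 1.47 in Erastin libraries. MET over PDGFRB was 8.54 and 9.65 in control and 24.0 and 23.3 in Erastin libraries. None of these 5 ratios overlapped between the groups. For single genes this was common, as 36.7% of all genes tested lay above and 36.9% below in both Erastin libraries. All ratios but PDGFC over PDGFA hold a member called above, whose change they repeat. FGFR1 over FGF2 and MET over PDGFRB were not among the ratios planned. An exact two-sided permutation test of each of the 5 ratios gave p = 0.33, the smallest that 2 against 2 libraries allow.

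**Figure D3:**
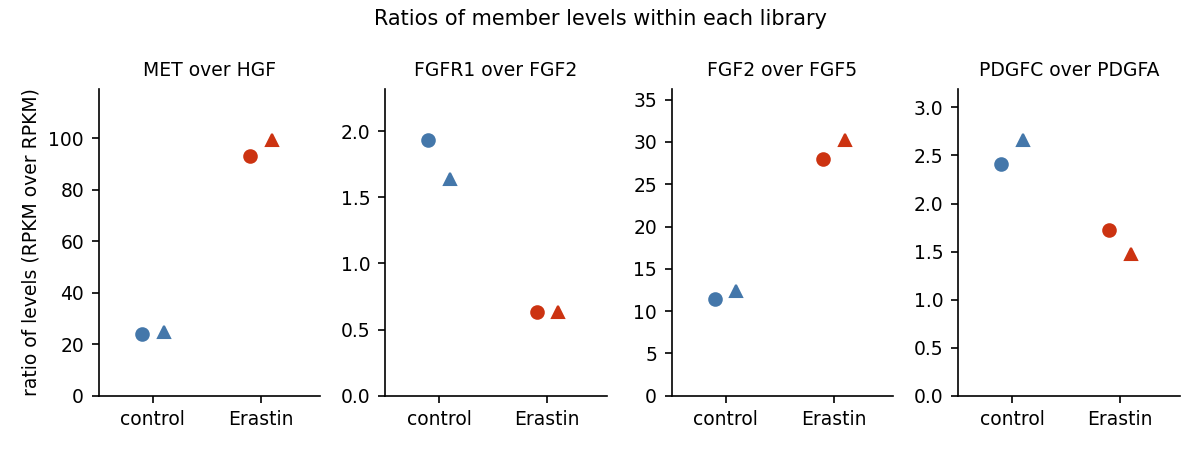
Ratio of the RPKM of pairs of members within each library, each panel on its own linear axis from 0, with control in blue, Erastin in red, circles for replicate 1 and triangles for replicate 2. MET over HGF and FGF2 over FGF5 are higher in both Erastin libraries, and FGFR1 over FGF2 and PDGFC over PDGFA are lower.

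The other genes of these pathways were read from 7 lists. Of all genes tested, 6.24% rose and 9.34% fell past both thresholds, the shares beside which the counts of each list stand. Of 23 other PDGF and FGF ligands and receptors, 7 were tested and 1 fell past both thresholds, with a median log2 fold change of −0.38 over the tested genes. The gene that fell was FGFRL1, an FGF receptor without a kinase domain, with 2588 and 2341 counts in control and 924 and 1098 in Erastin libraries (log2 fold change −1.28, SE 0.0938, adjusted p = 5.30e-07, edgeR). At an adjusted p under 0.05 alone, 1 gene of the list was higher and 3 were lower by edgeR, beside 23.2% and 23.7% of all genes tested. FGFR2 and FGFR4 had 0 counts in all libraries and FGFR3 at most 4, and PDGFD, a ligand of PDGFRβ, had at most 2. Without control replicate 2, 1 other gene of this list was called upregulated. The lists were chosen by name with earlier results of these data known. A list was described by its counts and median without a test of the list.

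Of 32 genes of ligand processing and co-receptors, 22 were tested, and the median was −0.18. Past both thresholds 2 rose and 2 fell, beside 6.24% and 9.34% of all genes tested. At an adjusted p under 0.05 alone, 5 were higher and 10 lower by edgeR, beside 23.2% and 23.7% of all genes tested. HSPG2 (perlecan) and SDC1 (syndecan-1), heparan sulfate proteoglycans that hold FGF ligands, fell by 1.28 and 1.07 on the log2 scale (adjusted p = 1.09e-07 and 4.08e-07, edgeR). Without control replicate 1, 1 gene of this list was called downregulated. PLXNB1, a semaphorin receptor that associates with MET, had 343 and 413 counts in control and 836 and 798 in Erastin libraries (log2 fold change 1.12, SE 0.130, adjusted p = 2.32e-05, edgeR). SULF2, an enzyme that removes sulfate groups from heparan sulfate and is named after its values were seen, had 5 and 0 counts in control and 24 and 32 in Erastin libraries. Without Erastin replicate 2, 1 gene was called upregulated. Of the proteases that activate HGF, HPN had 0 counts in all libraries and ST14 at most 9. HGFAC had 2 and 6 counts in control and 10 and 22 in Erastin libraries and did not pass the test (log2 fold change 1.97, adjusted p = 0.0797, edgeR). PLAU, which encodes urokinase, was well expressed, with 3196 and 3396 counts in control and 3682 and 3692 in Erastin libraries (log2 fold change 0.17, adjusted p = 0.063, edgeR). PLAT, a related plasminogen activator, was lower, with 604 and 683 counts in control and 357 and 365 in Erastin libraries (log2 fold change −0.83, adjusted p = 0.000232, edgeR). The inhibitor SPINT1 had 0 counts in all libraries, and SPINT2 had at most 10.

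Receptor adaptors and proximal enzymes held 37 genes, of which 36 were tested, with a median of 0.01. Past both thresholds 2 fell, beside 9.34% of all genes tested. At an adjusted p under 0.05 alone, 9 were higher and 8 lower by edgeR, beside 23.2% and 23.7% of all genes tested. GRB14, an adaptor that binds activated receptors, fell by 3.19 on the log2 scale, from 307 and 380 counts to 26 and 49 (SE 0.273, adjusted p = 1.95e-06, edgeR). LRIG3, a membrane protein that modulates receptor kinases, fell by 1.81 (adjusted p = 8.14e-05, edgeR). The adaptors that link FGFR1 and MET to RAS were measured too: FRS2 had a log2 change of 0.49 (adjusted p = 0.00156, edgeR), GRB2 of 0.26 (adjusted p = 0.0109, edgeR) and GAB1 of 0.23 (adjusted p = 0.299, edgeR). Those 3 are named after their values were seen. Without control replicate 1, and likewise without Erastin replicate 2, 1 gene of this list was called upregulated.

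In the RAS-ERK cascade 16 of 17 genes were tested, and edgeR called 0 past both thresholds. DESeq2 also called 0, and 0 passed the fold threshold at an unadjusted p under 0.05. By edgeR 5 were higher and 5 lower at an adjusted p under 0.05, beside 23.2% and 23.7% of all genes tested, and the median was −0.01. Without control replicate 1, 1 gene was called upregulated. HRAS differed between replicates by more than between groups, with 908 and 39 counts in control and 287 and 680 in Erastin libraries. Of 22 genes described of the PI3K-AKT cascade, 18 were tested, and 0 passed both thresholds by edgeR, by DESeq2, or by edgeR at an unadjusted p under 0.05 with the same fold threshold. By edgeR 5 were higher and 2 lower at an adjusted p under 0.05 (23.2% and 23.7% of all genes tested), with a median log2 fold change of 0.07. TSC1, a brake on mTOR named after its values were seen, had 3306 and 3270 counts in control and 5816 and 5948 in Erastin libraries (log2 fold change 0.85, adjusted p = 9.27e-07, edgeR).

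Of 16 genes listed as ETS targets and receptor feedback genes, 15 were tested, and the median was −0.37. Past both thresholds 1 rose and 5 fell, beside 6.24% and 9.34% of all genes tested. Without the fold threshold, 1 was higher and 10 were lower by edgeR at an adjusted p under 0.05, beside 23.2% and 23.7% of all genes tested. Whether these genes respond to ERK signaling in these cells was not tested. ETV1 and ETV4, ETS transcription factors, fell by 1.78 and 1.38 on the log2 scale, with 5238 and 5484 counts against 1486 and 1622 for ETV1 and 710 and 717 against 254 and 290 for ETV4. ETV5, of the same subfamily, had 2798 and 2703 counts in control and 2388 and 2688 in Erastin libraries and did not pass the test (log2 fold change −0.11, adjusted p = 0.246, edgeR). SH2B3, an adaptor that restrains receptor signaling, fell by 1.35 (adjusted p = 3.10e-08, edgeR). FLRT3, a membrane protein that binds FGF receptors, rose from 30 and 57 counts to 106 and 117 (log2 fold change 1.36, adjusted p = 0.00621, edgeR). Its log2 fold change was 0.98 without control replicate 1, just under the threshold of 1. The number of falls was 3 without control replicate 2 and 3 without Erastin replicate 2. IL17RD and RASA3, the other genes called downregulated, are named after their values were seen.

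Among 38 other receptor tyrosine kinases, 22 were tested. By edgeR 5 fell and 0 rose past both thresholds, beside 9.34% and 6.24% of all genes tested. DESeq2 called 0 upregulated too, and 0 passed the fold threshold upward at an unadjusted p under 0.05. Without the fold threshold, 1 was higher and 11 were lower by edgeR at an adjusted p under 0.05, beside 23.2% and 23.7% of all genes tested. The median log2 fold change was −0.64, compared to −0.00259 for all genes tested and −0.053 for the 8 tested members, which include ligands. Of the tested receptors among the members, PDGFRB changed by −1.56, MET by −0.17 and FGFR1 by 0.07. ROS1 fell by 1.90, TEK, the angiopoietin receptor, by 1.54 and EPHA2, an ephrin receptor, by 1.45 on the log2 scale. DDR2, a collagen receptor named after its values were seen, was the 1 higher receptor of the list. It had 8012 and 7791 counts in control and 12593 and 13313 in Erastin libraries (log2 fold change 0.72, adjusted p = 2.48e-06, edgeR). AXL, also named after its values were seen, was among the 11 lower ones. Its mean level was 77.9 RPKM in control and 48.5 RPKM in Erastin libraries (log2 fold change −0.68, adjusted p = 4.49e-05, edgeR).

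**Figure D4:**
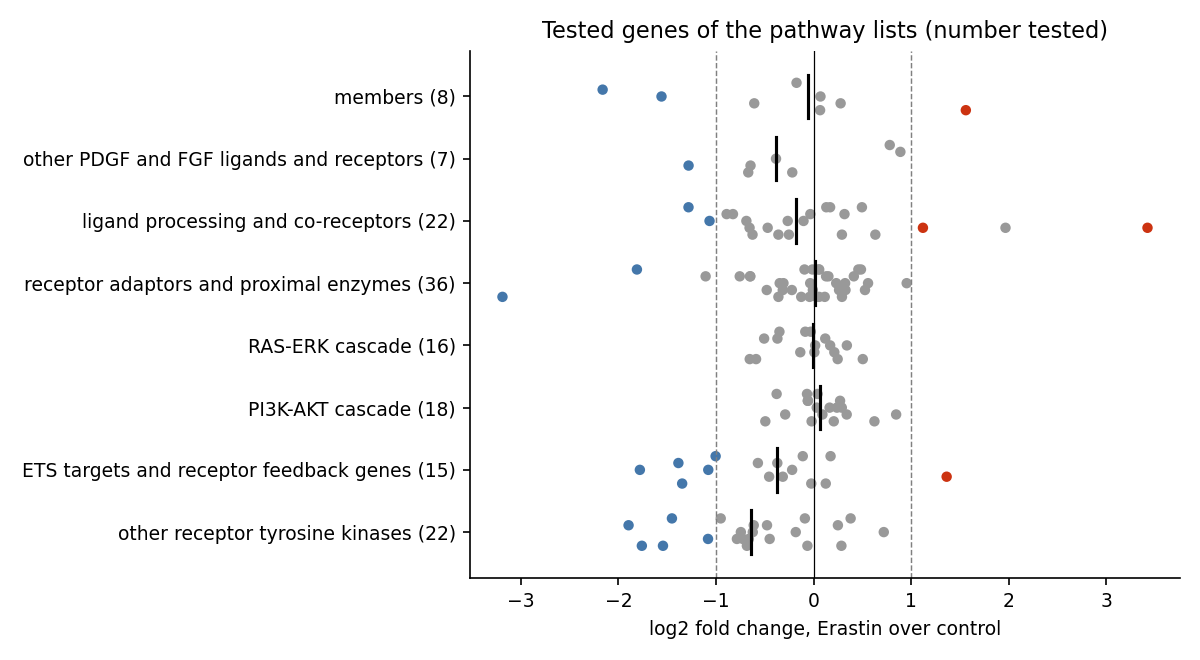
Log2 fold change in Erastin-treated over control cells for each tested gene of the members and the 7 pathway lists, 1 point a gene, red for upregulated, blue for downregulated and grey for other genes, with a black bar at each list's median and dashed lines at 1 in either direction. The medians run from −0.64 for other receptor tyrosine kinases to 0.07 for the PI3K-AKT cascade, and the members spread from −2.16 to 1.56.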

How the data were processed

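RNA-seq counts of 4 libraries (control and Erastin, 2 each) were used. ChIP-seq and HiChIP samples were not analysed here. Per the file headers, the authors deposited counts of reads on genes, written by featureCounts 2.0.3 with the Ensembl release 90 annotation of GRCh38. Per the labels, reads had been aligned with HISAT2 2.1.0. Reads were counted without regard to strand, the 2 reads of a pair singly, and reads matching more than 1 gene or place were left out, which lowers overlapping genes. The deposited values were whole numbers and not estimated counts, with no normalization. Counts were tested by edgeR 4.0.16 in R 4.3.3 (filterByExpr, minimum 10, TMM, quasi-likelihood test, two-sided), in 16751 genes. CPM and RPKM were computed from TMM-scaled totals and exon lengths of the table. Intervals used the moderated degrees of freedom. Alternatives were DESeq2 1.42.0, RLE factors, library totals, other filters, the replicate block, counts divided by 2, glmTreat and each library left out. The methods were also run on simulated counts with the same dispersion for every gene. Of 200 genes given large changes, edgeR called 197 and DESeq2 181, and of unchanged genes they called 1 and 0. Read pairs counted singly, noise that differs between genes and small changes were not simulated.

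The members and gene lists were chosen with earlier results of these data known. All members were named, and from each list up to 3 rises and 3 falls past both thresholds with a mean of at least 1 CPM. List genes named at or near 0 counts, and HGFAC, PLAU, PLAT, HRAS, ETV5 and CSF1R, were added after their values were seen. Same-numbered replicates did not deviate together (correlation 0.0293 across genes), so no block was used. Replicates of a group differed beyond sampling noise (chi-square per degree of freedom 11.3 for control and 9.23 for Erastin). A gene of the lists is not reported here. Promoter windows were found for 7 members.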

Additional observations from a re-analysis of the deposited data

How the results depend on the processing

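FGF2 stayed upregulated and PDGFRB and HGF downregulated under each alternative run, glmTreat against a 2-fold change included (adjusted p = 2.49e-05, 0.000482 and 9.25e-06). PDGFA turned to −0.053 without control replicate 2 and −0.079 without Erastin replicate 2. With each library left out it ranged from −0.079 to 0.20. With the replicate number as a replicate block, 1039 genes were upregulated and 1568 downregulated, with 1 and 2 members called as before. glmTreat called 377 genes upregulated and 748 downregulated. It called 0 upregulated and 1 downregulated gene of ligand processing and co-receptors, 0 upregulated and 3 downregulated ETS targets and feedback genes, and 2 downregulated other receptor tyrosine kinases, as it tests against the threshold itself. With at least 10 counts in every library, 1 gene of ligand processing was upregulated. Library totals gave 1 upregulated adaptor.

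With each library left out, the upregulated genes numbered 0 to 1 among other PDGF and FGF genes, 1 to 2 in ligand processing, 0 to 1 among adaptors, 0 to 1 in the RAS-ERK cascade and 0 to 1 among ETS targets and feedback genes. The downregulated genes numbered 1 to 2 in ligand processing and 3 to 5 among ETS targets and feedback genes. Members lower at an adjusted p under 0.05 numbered 3 or 4, the difference being MET. Depth limits PDGFRA and PDGFB.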
